A study of Mus musculus with 1600 samples.

Results

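The immediate-early AP-1 genes and their companions examined here are Fos, Fosb, Jun, Junb, Jund, Atf3, Egr1, Ier2, Btg2 and Nr4a1. These 10 genes were taken by symbol from a count table of 22092 symbols, and all 10 were detected in 10 kept cells or more, the filter that left 13125 genes. The cells came from embryonic mouse limbs, labelled as hind limbs, on the C57BL/6 background, all carrying the SCX-GFP transgene, a reporter of the tendon regulator Scx, at embryonic days E10.5 (119 cells kept of 120), E12.5 (158 of 160) and E15.5 (200 of 200). Limbs of siblings from 1 litter, 3 to 5 limbs a pool, were minced and digested with collagenase and trypsin in steps of 10 min at 37 °C, and single cells were captured on a Fluidigm C1 chip. No sort and no sex is named in the labels. Digestion was repeated until the tissue was gone, and the number of rounds per stage was not given, so time in enzyme and embryonic stage cannot be told apart in any value below.

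AP-1 is a dimer of a FOS-family protein with a JUN-family protein, or of JUN proteins with each other, that binds DNA and switches genes on or off. Its genes are transcribed within minutes of growth factor, calcium, stretch or stress signals without new protein synthesis, and their transcripts decay fast, which is why they are called immediate-early. Because tissue dissociation is itself such a signal, they are also widely known in single-cell work as genes that enzyme digestion can switch on.

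Each stage was 1 sample of pooled siblings, so no test between stages was possible, and values are given with their counting error and with the spread between library pools, a technical split of 40 cells each (pools 1 to 3 hold E10.5, pools 4 to 7 E12.5 and pools 8 to 12 E15.5). Levels are CPM, the summed counts of a stage's cells scaled to a total of 1e+06, with exact 95% Poisson intervals that cover counting error only. A gene was called higher or lower where the log2 ratio of CPM with 5 added was at least 1 in size and no pool of one stage reached into the range of the other. The stages summed to 33742559, 46009284 and 46035725 counts in order of age, and the median cell held 272198, 250709 and 192228 counts. All 40 cell barcodes recurred in all 12 pools, where the pool index tells the cells apart. The limb mesenchyme marker Prrx1 stood at 446 CPM at E10.5, then at 652 and 400 CPM. The forelimb gene Tbx5 stood at 67.9, 0.739 and 6.32 CPM, and the hind limb gene Pitx1 had 0 counts at E10.5, which allows up to 3 counts, then 169 and 68.7 CPM. The cells labelled E10.5 thus go against their hind limb label, and E15.5 over E12.5 is the comparison that does not use them.

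The sequence just upstream of 5 of the genes is shown because the classical response elements of such genes lie close to their starts. RefSeq promoters of 8 of the 10 genes were matched on GRCm38.p6 (Egr1 and Ier2 were not matched). Each covered the 250 bases before the RefSeq start, which can differ from the gene positions given below. The Nr4a1 and Atf3 windows lie within the spans given for these genes. The Jund window ends at chr8:70697738, apart from the Jund span. Both strands were searched for the core of the cAMP response element (TGACG), the full element (TGACGTCA), an 8-base relative of it (TGANNTCA, which includes the full element), the AP-1 site (TGANTCA), the CArG box and, left in lower case, TATAAA. Capitals mark the matches, and all sequences run 5′ to 3′ on the strand of the gene. The Fos window lies at chr12:85473640-85473889 (+), Fosb at chr7:19310046-19310295 (−), Jun at chr4:95052223-95052472 (−), Btg2 at chr1:134079156-134079405 (−) and Nr4a1 at chr15:101266596-101266845 (+).
Fos: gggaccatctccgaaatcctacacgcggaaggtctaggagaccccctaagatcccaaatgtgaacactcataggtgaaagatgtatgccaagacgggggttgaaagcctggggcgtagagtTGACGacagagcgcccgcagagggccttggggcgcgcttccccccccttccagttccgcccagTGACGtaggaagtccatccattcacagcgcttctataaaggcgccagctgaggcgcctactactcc
Fosb: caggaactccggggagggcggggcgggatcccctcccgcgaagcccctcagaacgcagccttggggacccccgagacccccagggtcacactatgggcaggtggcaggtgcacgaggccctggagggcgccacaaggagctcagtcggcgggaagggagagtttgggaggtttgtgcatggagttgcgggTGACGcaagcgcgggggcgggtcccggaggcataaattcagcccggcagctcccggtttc
Jun: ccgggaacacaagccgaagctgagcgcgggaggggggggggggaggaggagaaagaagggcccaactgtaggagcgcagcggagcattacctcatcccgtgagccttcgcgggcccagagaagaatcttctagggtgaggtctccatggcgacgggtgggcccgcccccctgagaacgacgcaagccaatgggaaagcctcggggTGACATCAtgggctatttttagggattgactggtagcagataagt
Btg2: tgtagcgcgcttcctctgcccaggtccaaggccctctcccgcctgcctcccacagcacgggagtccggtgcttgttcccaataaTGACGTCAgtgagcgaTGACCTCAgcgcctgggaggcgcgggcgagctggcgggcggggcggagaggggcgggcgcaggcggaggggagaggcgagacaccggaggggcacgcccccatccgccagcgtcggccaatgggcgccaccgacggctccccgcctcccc
Nr4a1: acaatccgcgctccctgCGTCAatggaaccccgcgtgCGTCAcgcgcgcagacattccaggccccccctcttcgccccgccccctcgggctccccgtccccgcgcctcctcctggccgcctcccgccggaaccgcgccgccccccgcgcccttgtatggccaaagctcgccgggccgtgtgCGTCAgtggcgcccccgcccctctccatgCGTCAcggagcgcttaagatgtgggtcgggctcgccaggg
The core was present in 6 of the 8 promoters (Fos, Fosb, Junb, Atf3, Btg2 and Nr4a1), against 17.9% of 27025 mouse promoters of the same length. Nr4a1 held it 4 times and Fos had matches starting 129 and 66 bases before the start. The full element was found in Btg2, where it shares its bases with 2 cores, against 1.62% of all promoters. TGANNTCA was found in Jun, Jund and Btg2, against 12% of all. The AP-1 site and the CArG box were found in 0 of 8, against 6.87% and 1.4% of all, and TATAAA in 1 of 8 (Fos), against 13%. The core was added to the search after the sequences had been seen, so these shares are a description of letters in short windows. The promoters set beside them were not matched for base content. Sites more than 250 bases before the start were not searched, nor were Egr1 and Ier2. A share of 0 of 8 therefore does not show that these genes lack a CArG box or an AP-1 site.

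FOS-family proteins join the dimer by pairing with JUN proteins. Fos, on chromosome 12 (GRCm38 85473890 to 85477273, plus strand), read 162, 138 and 171 CPM in the E10.5 pools, 641, 545, 943 and 495 CPM in the E12.5 pools, and 1375, 1541, 1410.1, 1241 and 1386 CPM in those of E15.5. No stage's pools reached into another's, and pool 6 was the high one at E12.5. Over all cells of a stage Fos stood at 156 CPM at E10.5 (95% interval 152 to 160.1), 629.03 CPM at E12.5 (621.8 to 636.3) and 1390.0 CPM at E15.5 (1379 to 1401). It was called higher in E12.5 than in E10.5 cells (4.04-fold, log2 ratio 1.98) and in E15.5 than in E12.5 cells (2.21-fold, log2 ratio 1.14). The later of these calls lay close to its limit and was lost when each cell's CPM was averaged (log2 ratio 0.99) or each cell was thinned to 50000 counts (0.97).

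Fosb, a relative of Fos that also pairs with JUN proteins, lies on chromosome 7 (19302696 to 19310051, minus strand). It read 97.5, 124 and 116 CPM in the E10.5 pools, 229.9, 257, 356 and 325 CPM in the E12.5 pools, and 437, 403, 494, 364 and 594.5 CPM in those of E15.5. The 3 ranges were again apart, though the highest E12.5 pool and the lowest E15.5 pool nearly met. Fosb was called higher in E12.5 than in E10.5 cells (2.59-fold, log2 ratio 1.34) but its 1.61-fold difference between E15.5 and E12.5 (log2 ratio 0.67) did not reach the limit.

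Among the JUN proteins, Jun is the strongest activator, Junb is often found to restrain it, and Jund is the form that resting cells also hold. Jun (chromosome 4, 95049034 to 95052222, minus strand) read 58.2, 48.9 and 100.2 CPM at E10.5, 172, 142, 254 and 116 CPM in the E12.5 pools, and 308, 285, 418, 541 and 473 CPM in those of E15.5. Pool 3 was the high one at E10.5 and came near the lowest E12.5 pool without crossing it. Jun was called higher in both steps, 2.44-fold at E12.5 over E10.5 (log2 ratio 1.22) and 2.47-fold at E15.5 over E12.5 (log2 ratio 1.28).

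Junb (chromosome 8, 84974484 to 84978718, minus strand) read 15.53, 21.3 and 45.0 CPM at E10.5, 37.6, 71.7, 71.7 and 73.9 CPM in the E12.5 pools, and 201, 126, 207, 148 and 179 CPM in those of E15.5. One E10.5 pool lay above one E12.5 pool, so its 2.46-fold difference between E12.5 and E10.5 (log2 ratio 1.15) was not called. Without pool 3 it was called (log2 ratio 1.56), and likewise without pool 4 (1.33). Between E15.5 and E12.5 Junb was 2.74-fold higher (log2 ratio 1.39) with pools apart. Jund (chromosome 8, 70698949 to 70700616, plus strand) moved less: it read 141, 129.5 and 108 CPM at E10.5, 236, 188, 238 and 178 CPM in the E12.5 pools, and 346, 375, 337, 344 and 413 CPM in those of E15.5. Its pools were apart at every step, yet it stood 1.62-fold higher in E12.5 than in E10.5 cells and 1.77-fold higher in E15.5 than in E12.5 cells, both under the limit.

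Atf3, a stress-induced bZIP factor that represses as a homodimer, is on chromosome 1 (191170296 to 191218039, minus strand). It read 4.59, 3.74 and 31.6 CPM at E10.5, 7.34, 2.51, 19.0 and 16.3 CPM in the E12.5 pools, and 40.2, 44.0, 150.2, 101 and 133 CPM in those of E15.5. It stayed low in most pools until E15.5, and all 5 E15.5 pools lay above every earlier pool. Atf3 was called higher in E15.5 than in E12.5 cells (8.24-fold, log2 ratio 2.59), while E12.5 over E10.5 gave 0.935-fold (log2 ratio −0.07). A single cell of pool 3 held 156 of its 403 counts at E10.5. Without pool 3 Atf3 was 2.67-fold higher in E12.5 than in E10.5 cells, not called, and 22.0-fold higher in E15.5 than in E10.5 cells, in place of 7.71-fold. Without the epithelium, muscle and endothelium clusters, the pools overlapped and neither E15.5 call held (log2 ratio 2.69 over E12.5 and 2.55 over E10.5).

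Egr1 is a zinc finger factor that is induced beside Fos and, in limbs, is known for its part in tendon formation. It lies on chromosome 18 (34859823 to 34864984, plus strand). Egr1 read 112, 115 and 171 CPM at E10.5, 1322, 1041, 1338 and 1297 CPM in the E12.5 pools, and 1303, 1762, 1501, 1505 and 1378 CPM in those of E15.5. Nearly its whole difference lay in the first interval. Egr1 was called higher in E12.5 than in E10.5 cells (9.63-fold, log2 ratio 3.22), whereas the E15.5 and E12.5 pools overlapped and the ratio was 1.18-fold (log2 ratio 0.23).

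Nr4a1, an orphan nuclear receptor induced by calcium and growth factor signals, is on chromosome 15 (101254269 to 101274795, plus strand). It read 4.91, 2.04 and 3.03 CPM at E10.5, 52.4, 48.1, 33.6 and 65.3 CPM in the E12.5 pools, and 108, 181, 102, 123 and 157 CPM in those of E15.5. It was nearly missing at E10.5 and rose at each step with no pool overlapping, 15.3-fold at E12.5 over E10.5 (log2 ratio 2.76) and 2.58-fold at E15.5 over E12.5 (log2 ratio 1.29). Btg2, an antiproliferative protein that acts on transcript turnover, is on chromosome 1 (134075170 to 134079120, minus strand). Btg2 read 12.4, 10.9 and 6.59 CPM at E10.5, 64.2, 18.3, 57.4 and 77.5 CPM in the E12.5 pools, and 250.4, 244, 209.9, 125 and 280.5 CPM in those of E15.5. Pool 5 was low at E12.5 and pool 11 at E15.5, and neither crossed into a neighbouring stage. Btg2 was called higher in both steps, 5.47-fold (log2 ratio 2.00) and then 4.08-fold (log2 ratio 1.94).

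Ier2, a small nuclear protein of the early response, differed least between the stages. On chromosome 8 (84661331 to 84662852, minus strand), it read 366, 313 and 322 CPM at E10.5, 466, 454, 429.9 and 381 CPM in the E12.5 pools, and 406, 456, 388, 385 and 416 CPM in those of E15.5. The E12.5 and E15.5 ranges overlapped almost wholly, with E15.5 at 0.957-fold of E12.5, and both lay a little above E10.5 (1.28-fold for E12.5 and 1.22-fold for E15.5). Ier2 was called in no comparison.

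**Figure D1:**
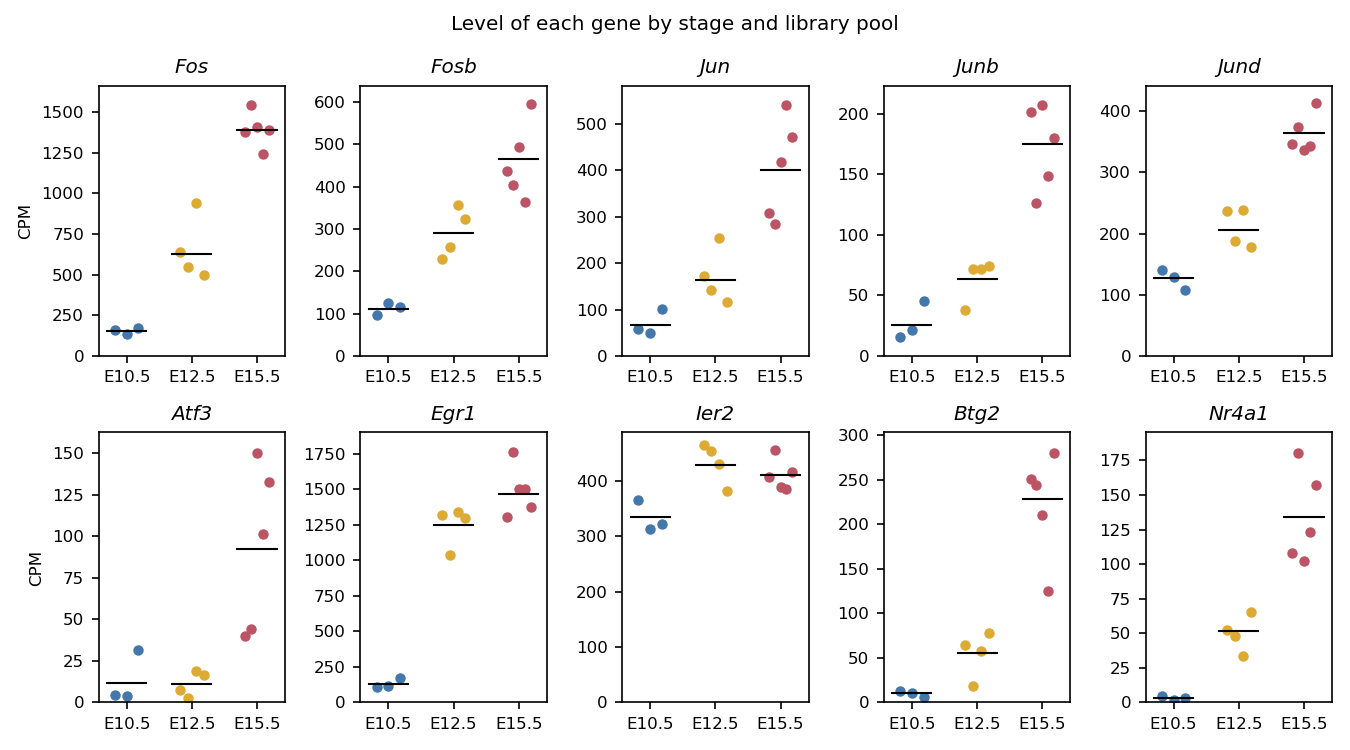
Level of each of the 10 genes in CPM (vertical axis, starting at 0, its own scale in each panel) by stage (horizontal axis). Each point is the CPM of the kept cells of 1 library pool, and the bar is the CPM of the whole stage. Egr1 differs mainly between E12.5 and E10.5, Atf3 mainly between E15.5 and E12.5, and Ier2 in neither by as much as 2-fold.

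Counted together, 6 of 10 genes were called higher in E12.5 than in E10.5 cells (Fos, Fosb, Jun, Egr1, Btg2 and Nr4a1) and 0 lower, against 7.76% of all genes tested called higher and 2.83% lower. At E15.5 over E12.5, without the E10.5 cells, 6 of 10 were called higher (Fos, Jun, Junb, Atf3, Btg2 and Nr4a1) and 0 lower, against 2.99% and 1.63% of all genes. Over the whole span, E15.5 over E10.5, 9 of 10 were called higher, Ier2 being the exception, against 11.2% higher and 5.01% lower. The median log2 ratio of the 10 genes was 1.28, 1.21 and 2.53 in these comparisons, against 0.16, −0.04 and 0.15 over all 13125 genes. The comparisons share stages, so they are not independent of each other. The 10 genes and the related lists below were chosen with earlier results of these data known, so these counts are a description and not a test. Because these are sums over cells, more cells with a gene switched on and more transcript per cell can be separated only in the per-cell values that follow.

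The mixture of the 10 changed as well as the amount. Their reads were 0.0978%, 0.315% and 0.513% of all counts in order of age. Ier2 gave 34.3% of these reads at E10.5, then 13.6% and 8.00%. Egr1 gave 13.3%, 39.7% and 28.6%, and Fos gave 15.9%, 20.0% and 27.1%. Counts were not divided by length, so these are shares of reads and not of molecules.

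Per cell, the summed CPM of the 10 genes had a median of 841 at E10.5 (lowest 48.7, quartiles 517 and 1279, highest 3977), then 2884 at E12.5 (238, 1832, 4351 and 20744) and 4940.5 at E15.5 (135, 2744, 7261 and 20579). The pool medians were 844, 745 and 864 at E10.5, 3056, 2314, 3466 and 2620 in the E12.5 pools, and 4972, 5525, 3811, 4913 and 5211 in those of E15.5. The whole distribution was shifted and not a small fraction of cells: 152 of 158 E12.5 cells lay above the E10.5 median, and 4 of 119 E10.5 cells above the E12.5 median. At E15.5, 147 of 200 cells lay above the E12.5 median, but 0 above the highest E12.5 cell, so the later stages overlapped broadly. Of the E15.5 cells, 122 of 200 lay above the highest E10.5 cell, and 0 of 119 E10.5 cells reached the E15.5 median.

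**Figure D2:**
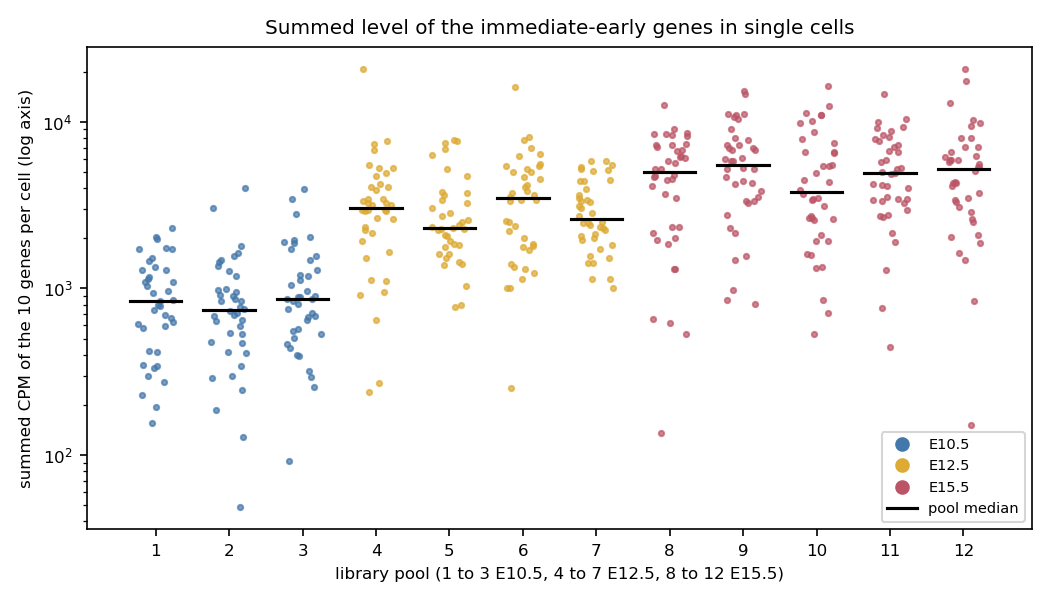
Summed CPM of the 10 genes in single cells (vertical log axis) for each of the 12 library pools (horizontal axis), coloured by stage, with the pool median as a bar. The medians run from 745 to 864 in the E10.5 pools, 2314 to 3466 in the next 4 and 3811 to 5525 in the last 5.

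The ratio of the medians was 3.43 for E12.5 over E10.5, 1.71 for E15.5 over E12.5 and 5.88 for E15.5 over E10.5. These ratios depended on single genes: without Egr1 the log2 ratio of E12.5 over E10.5 was 1.22, in place of 1.78, and that of E15.5 over E12.5 was 1.17, in place of 0.78. Without Ier2 the log2 ratio of E12.5 over E10.5 was 2.28. The per-cell sum was little related to depth, with Pearson r against log2 total counts of 0.21 in the youngest cells (n = 119), then 0.04 (n = 158) and −0.06 (n = 200). Against the number of detected genes r was 0.14, −0.01 and −0.03.

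Single cells at the ends of the range show how far the mixture can vary. The highest E15.5 cell (pool 12, 417469 counts) held 20579 CPM, with 5119 CPM Fos, 4594 CPM Egr1, 3552 CPM Btg2 and all 10 genes present. The highest E12.5 cell (pool 4, 52594 counts) held 20744 CPM, with 8347 CPM Fos, 5666 CPM Egr1 and 3422 CPM Jun but 0 counts of Junb, Atf3 and Nr4a1. The lowest E15.5 cell (pool 8, 163182 counts) belonged to the epithelium and held 135 CPM, of which 85.8 CPM was Fos. The highest E10.5 cell held 3977 CPM, mainly Egr1 (1731 CPM) and Fos (1418 CPM).

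Thinning each cell to 50000 counts put the stages on a common depth and kept 115, 149 and 185 cells in order of age, leaving out 4, 9 and 15 shallower ones. Fos was then found in 58.3% of E10.5 cells (exact Clopper-Pearson interval 48.7% to 67.4%), then in 93.3% (88.0% to 96.7%) and 100% (98.0% to 100%). These intervals count cells, which are not replicates of a stage. They cover neither the spread between pools nor that between litters. Egr1 was found in 54.8%, 98.7% and 98.9%, Nr4a1 in 6.09%, 40.9% and 64.3%, and Btg2 in 8.70%, 24.8% and 58.4%. Unthinned, the shares were 80.7%, 97.5% and 100% for Fos and 9.24%, 52.5% and 78.5% for Nr4a1. For Egr1 the unthinned shares were 71.4%, 100% and 100%, so its share at E10.5 depends on depth. At the common depth Egr1 passed from 54.8% of cells to nearly every cell by E12.5, while Btg2 and Nr4a1 were still not found in many E15.5 cells.

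Jun was found in 48.7%, 66.4% and 91.9% of thinned cells, and Junb in 30.4%, 44.3% and 70.8%. Jund was widespread from the start, in 89.6%, 95.3% and 98.4%, and Fosb lay between, in 61.7%, 83.2% and 87.6%. Atf3 was the rarest of the 10 from E12.5 on, in 12.2%, 8.05% and 29.2% of cells. Ier2 was found in 93.0%, 90.6% and 87.0% (intervals over cells 86.8% to 96.9% at E10.5 and 81.3% to 91.5% at E15.5). As a measure of stray reads, the keratin Krt14 was found in 70 of 157 E15.5 cells outside the epithelium (44.6%, 39.1 CPM, against 1781 CPM in the epithelium) and in 3.52% of such cells at E12.5. The muscle actin Actc1 was found in 14.9% of E15.5 cells outside muscle (10.0 CPM) and in 11.3% at E12.5. The endothelial cadherin Cdh5 was found in 9.66% of E15.5 cells outside the endothelium (5.68 CPM) and in 5.48% at E12.5. At E12.5 the Atf3 share lay within the range of these 3 stray shares, so no expression is read from it. At E15.5 the Atf3 share lay above those of stray Actc1 and Cdh5 and below that of stray Krt14, while its level of 92.1 CPM was above all 3 stray levels. At E10.5, where the low shares of Atf3, Btg2 and Nr4a1 lie, stray reads were not measured this way.

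The number of the 10 genes found per thinned cell had a median of 5, then 6 and 8 in order of age. At least 8 of them were found in 2 of 115 cells at E10.5 (1.74%), then in 36 of 149 (24.2%) and 121 of 185 (65.4%). All 10 were found in 0, 2 and 25 cells, and no cell at any stage lacked all of them. Stray reads, which were more widespread at E15.5 than at E12.5, can add to these numbers, and their part in the rise was not tested.

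The spread of each gene over cells was measured as the share of its CPM held by the top 10% of cells. The median over the 10 genes was 57.1% at E10.5, then 48.1% and 40.0%. That of genes at 50 CPM or more was 52.2%, 57.0% and 58.0%, and that of all genes tested 85.7%, 86.2% and 86.5%. Junb, Atf3, Btg2 and Nr4a1 lay under 50 CPM at E10.5 and Atf3 also at E12.5, so the 10 genes and the genes at 50 CPM are unlike sets there. Egr1 stood at 56.6%, 25.8% and 26.0%, the lowest share of the 10 at E12.5 and E15.5, and Fos became more even, at 57.6%, 42.0% and 29.3%. Jund held 26.6% in that top share at E10.5. Atf3 was the most uneven at E12.5 and E15.5, at 99.8% and 79.7%, and Btg2 stood at 99.3%, 86.5% and 62.1%. Evenness moves with level, so these shares describe levels as well as cells.

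Within a stage the genes tended to be high in the same cells, and more so at later stages. Over the 45 pairs of the 10 genes the median Pearson r of log2(CPM + 10) was 0.10 at E10.5 (119 cells, range −0.15 to 0.33), then 0.18 (158 cells, 0.01 to 0.38) and 0.29 (200 cells, 0.12 to 0.49). All pairs of 6782 widely detected genes had medians of 0.02, 0.04 and 0.03. Pairs with r above 0.2 numbered 5, then 18 and 33 in order of age. The closest pairs at E15.5 were Fos with Fosb (0.49), Fos with Egr1 (0.48), Fosb with Egr1 (0.47), Egr1 with Ier2 (0.47), Jund with Egr1 (0.43) and Btg2 with Nr4a1 (0.43). At E12.5 the closest pair was Fosb with Jund (0.38), and at E10.5 Junb with Nr4a1 (0.33). Cells of a stage share litter, pools and depth, low levels hold r down, and no p is given. The cells of a stage also mix cell types, and at E15.5 the level of the 10 genes differed between them, as described below. Correlation within a cell type was not computed, so the part of this mixture in the rise of r was not tested.

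**Figure D3:**
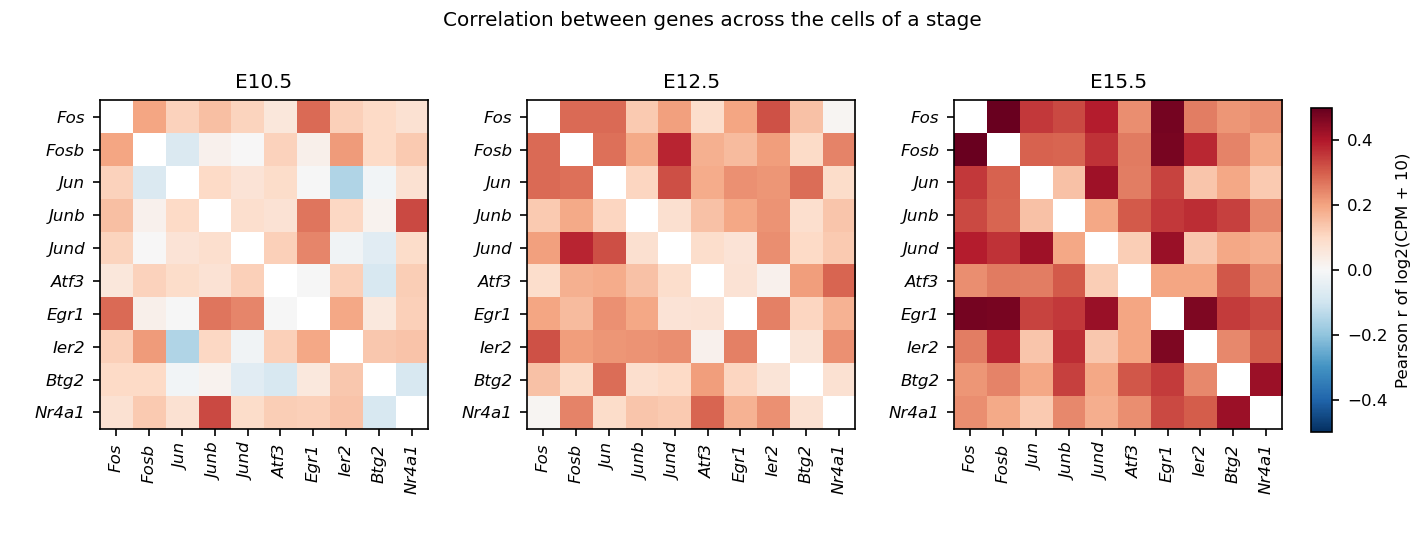
Pearson r of log2(CPM + 10) between each pair of the 10 genes across the 119, 158 and 200 cells of the stages, on 1 colour scale, with the diagonal left white. The E15.5 panel is the darkest, with Fos, Fosb and Egr1 at 0.47 to 0.49, and the E10.5 panel holds values down to −0.15.

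The genes whose level followed the per-cell sum most closely were sought among 6775 genes detected in 20% or more of the cells of every stage, by the mean r over the 3 stages. Klf4, a zinc finger factor of the early response, came first (mean r 0.30, from 0.26, 0.24 and 0.41 in order of age). Others among the closest were Cyr61, a secreted matrix protein of the early response (0.26), Id1, an inhibitor of helix-loop-helix factors (0.25), the nuclear noncoding RNA Malat1 (0.25), Csrnp1 (0.24), the Notch target Hes1 (0.23), Sox11 (0.22), the collagen gene Col5a1 (0.21) and Apeg3 (0.20). For some the stages differed, with r in order of age of 0.38, 0.21 and 0.11 for Hes1 and 0.21, 0.06 and 0.35 for Col5a1. Sox11 had 0.23, 0.28 and 0.13. Cell types were mixed in these values, and correlation within a cell type was not computed. The median r over all searched genes was 0.0092. Klf4, Cyr61 and Csrnp1 belong to the list of other immediate-early genes described next.

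To place the 10 genes in their pathway, 105 other genes in 5 lists were followed between stages by the same call. Of the other immediate-early genes, 33 of 36 passed the filter. At E12.5 over E10.5, 8 were called higher and 1 lower (Gadd45a), with a median log2 ratio of 0.63, and at E15.5 over E12.5, 7 were called higher and 1 lower (Ier5l), with a median of 0.66. Over the whole span 18 were called higher and 2 lower, with a median of 1.53. These are counts against the same 7.76%, 2.99% and 11.2% of all genes called higher.

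Zfp36, which directs AU-rich transcripts to decay, stood at 20.4 CPM at E12.5, against 0.919 CPM at E10.5 (22.2-fold, 31 counts at E10.5), and at 115 CPM at E15.5 (5.64-fold over E12.5). Cyr61 stood at 276 CPM at E12.5, against 59.0 CPM at E10.5 (4.67-fold). The polo-like kinase Plk2 was 4.92-fold higher in E12.5 than in E10.5 cells, and Btg1, a relative of Btg2, 3.14-fold. At E15.5 the factors Klf2 and Klf4 stood 7.49-fold and 3.25-fold higher than at E12.5, with Klf4 at 316 CPM against 97.3 CPM, and Csrnp1 3.50-fold higher. Socs3, an inhibitor of cytokine signalling, was 11.0-fold higher in E15.5 than in E10.5 cells, and Ier3 8.82-fold.

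Of the other AP-1 and bZIP partners, 13 of 16 genes passed the filter, and 0 were called at E12.5 over E10.5, 1 higher in E15.5 than in E12.5 cells and 2 higher over the whole span, with medians of 0.07, 0.21 and 0.09. With 13 genes, these counts are close to the 7.76%, 2.99% and 11.2% of all genes called higher. The gene called in both of the comparisons that involve E15.5 was Fosl2, which encodes the FOS-family protein FRA2. Fosl2 stood at 74.7 CPM at E15.5 (pools 70.7 to 81.0), against 10.8 CPM at E12.5 (pools 0.805 to 22.7), a 6.91-fold difference. The other, over the whole span, was Jdp2, which encodes a JUN dimerisation protein. Fosl1 had 0 counts at all 3 stages.

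Of the feedback inhibitors of MAP kinase signalling, 15 genes passed the filter, of which 2 were called higher and 3 lower at E12.5 over E10.5, 1 higher and 1 lower at E15.5 over E12.5, and 4 higher and 2 lower over the whole span, with medians of 0.20, 0.33 and 0.55. Of all genes, 7.76%, 2.99% and 11.2% were called higher and 2.83%, 1.63% and 5.01% lower in these comparisons. Dusp1, an immediate-early phosphatase, stood at 207 CPM at E15.5, against 72.2 CPM at E12.5 (2.86-fold). Dusp6, an ERK phosphatase that reads out FGF signalling in limb buds, stood at 93.1 CPM at E12.5, against 200.2 CPM at E10.5 (0.465-fold). Dusp9 stood at 13.4 CPM at E15.5, against 67.4 CPM at E12.5 (0.198-fold), and at E12.5 against 188 CPM at E10.5 (0.358-fold). Dusp8 rested on 1 count at E10.5, against 20.4 CPM at E15.5, so no fold is given.

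The list of the upstream factor SRF, its partners and the MAP kinases held 19 genes, all of which passed the filter. Of these, 0 were called at E12.5 over E10.5, 1 higher in E15.5 than in E12.5 cells (Elk4) and 2 higher over the whole span (Elk4 and Mapk9), with medians of −0.08, −0.05 and −0.20. These counts are close to the shares of all genes called higher. Elk4, an SRF partner, stood at 27.7 CPM at E15.5, against 8.82 CPM at E12.5 (3.14-fold).

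Heat shock genes, which respond to warming and to misfolded protein, were called lower more often than higher. Of 18 genes, 1 was called higher and 5 lower at E12.5 over E10.5, 0 higher and 1 lower at E15.5 over E12.5, and 1 higher and 6 lower over the whole span, with medians of −0.39, −0.29 and −0.46, against 2.83%, 1.63% and 5.01% of all genes called lower. The chaperone gene Hsph1 stood at 226 CPM at E12.5, against 652 CPM at E10.5 (0.347-fold), and at 68.3 CPM at E15.5 (0.302-fold of E12.5). Hsp90aa1 stood at 1772 CPM at E12.5, against 4862 CPM at E10.5 (0.364-fold). The gene called higher was Dnajb4, at 34.8 CPM at E12.5, against 6.82 CPM at E10.5 (5.11-fold). Some uncalled genes of the list also stood highest at E15.5. Hspb1 stood at 5.22, 12.2 and 120 CPM in order of age, and Hspa1b at 4.80, 3.61 and 13.1 CPM. The list thus did not move as one. Across cells the summed heat shock level had r with the sum of the 10 genes of −0.03, 0.04 and −0.15 in order of age, whereas the summed other immediate-early genes had 0.34, 0.40 and 0.59.

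**Figure D4:**
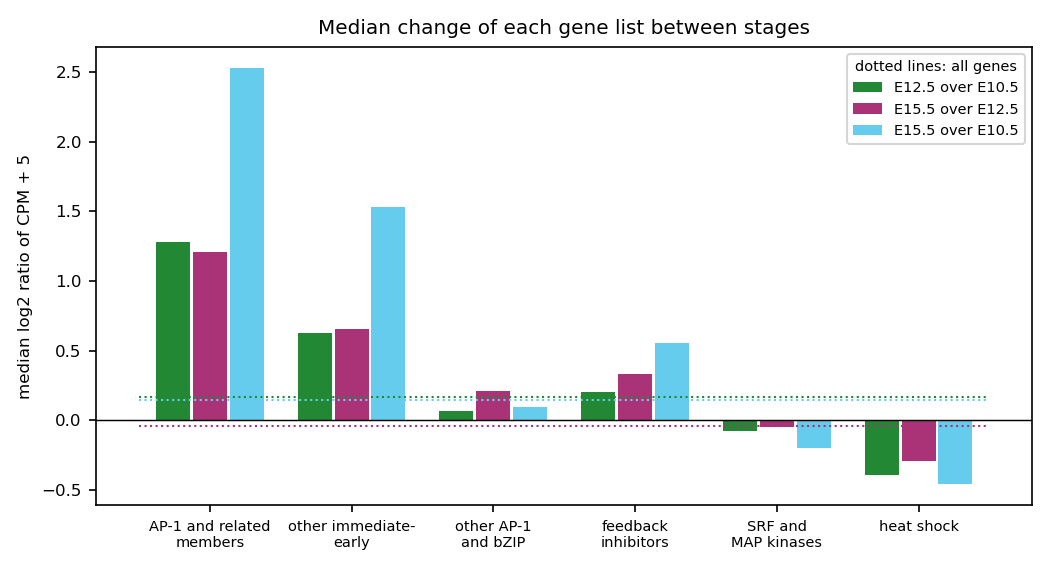
Median log2 ratio of CPM + 5 of the 10 genes and of 5 related lists (horizontal axis) in each comparison of stages (bars from 0), with dotted lines at the median over all 13125 genes. The 10 genes stand at 1.28, 1.21 and 2.53 and the other immediate-early genes at 0.63, 0.66 and 1.53, while the heat shock list lies below 0 in each.

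Cell types were set apart by clustering the 477 cells without the 10 genes and without the 5 lists. Of 9 clusters, 4 took a name from their markers: limb bud mesenchyme (116 cells, 114 of them from E10.5), epithelium (37), endothelium (18) and muscle (18). The other 5 stayed unnamed and are called by number. Cluster 2 (86 of its 89 cells from E15.5) had connective tissue genes such as Lum and Thy1, cluster 3 (74 of 75 from E12.5) and cluster 4 (49 of 52 from E12.5, with Aldh1a2 and Hoxd12) held most E12.5 cells, cluster 5 (50 of 52 from E15.5) had tendon and cartilage genes such as Tnmd and Acan, and cluster 7 (20 cells) was led by protocadherin genes. Prrx1 stood at 385 to 1007 CPM in the unnamed clusters and at 124 to 167 CPM in epithelium, endothelium and muscle. Cells of the limb bud mesenchyme cluster also carried embryonic globin reads, with Hbb-y at 324 CPM, whose part in its values was not tested.

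At E15.5 the sum of the 10 genes was lower in epithelium, endothelium and muscle than in the unnamed clusters. The per-cell sum had a median of 2153 CPM in 30 epithelial cells, 2596 CPM in 10 endothelial cells and 2043 CPM in 11 muscle cells, against 5558 CPM in cluster 2 (86 cells), 6166 CPM in cluster 5 (50 cells) and 7256 CPM in cluster 7 (9 cells). Set against the median of 5839 CPM over 149 cells of the unnamed clusters, the epithelium stood at 0.369, the endothelium at 0.445 and muscle at 0.350 of it. Only 2 of 30 epithelial, 1 of 10 endothelial and 1 of 11 muscle cells lay above that median. The class median was the lower one in 5 of 5 pools for epithelium, 4 of 4 for endothelium and 5 of 5 for muscle. The named classes had the deeper cells, with median counts of 261274, 259335 and 232139, against 175595 in the unnamed clusters.

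Gene by gene, a class was counted as lower where the log2 ratio of CPM + 5 was at or below −1, with no condition on pools. In E15.5 epithelium 9 of 10 genes were at least 2-fold lower than in the unnamed clusters and 0 were higher, against 19.9% of all genes lower and 8.36% higher. Fosb stood at 146 CPM in epithelium and 597.3 CPM in the unnamed clusters (log2 ratio −2.00), Fos at 620 CPM and 1729 CPM (−1.47), and Ier2, which hardly differed between stages, at 169 CPM and 473 CPM (−1.46). The exception was Atf3, at 132 CPM in epithelium and 90.5 CPM in the unnamed clusters, and 805 of its 1080 epithelial counts came from 1 cell of pool 12.

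In E15.5 muscle 7 of 10 genes were lower and 0 higher, against 29.7% of all genes lower and 10.2% higher. Ier2 stood at 501 CPM in muscle and 473 CPM in the unnamed clusters, and Egr1 (1049 CPM and 1792 CPM) and Jund (282 CPM and 444 CPM) did not reach the limit. In E15.5 endothelium 4 of 10 were lower (Fos, Fosb, Jun and Egr1) and 0 higher, against 27.8% lower and 9.89% higher. With 10 genes, this count of lower ones is not far from the share of all genes, so it is not read as particular to them. Junb stood at 191 CPM in endothelium and 210.0 CPM in the unnamed clusters, and Btg2 at 227 CPM and 277 CPM. Of the 3 classes, Ier2 passed the limit in epithelium and Junb in epithelium and muscle, and the differences between classes were not tested.

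**Figure D5:**
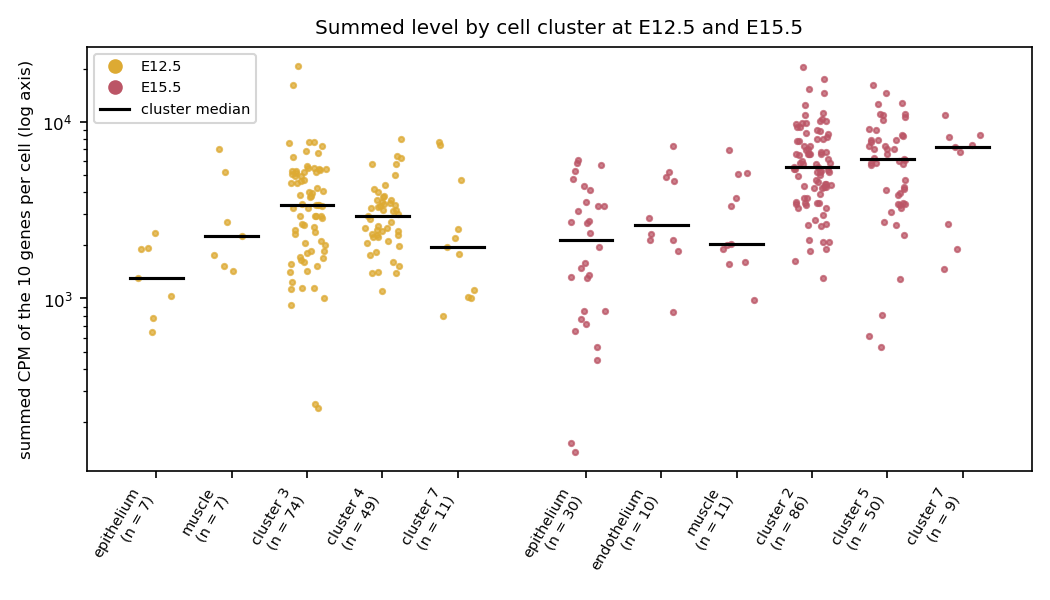
Summed CPM of the 10 genes per cell (vertical log axis) by cluster at E12.5 and E15.5 (horizontal axis, number of cells in brackets), with the cluster median as a bar and clusters with at least 5 cells at a stage shown. At E15.5 the medians of epithelium, endothelium and muscle lie between 2043 and 2596 CPM and those of clusters 2, 5 and 7 between 5558 and 7256 CPM.

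At E12.5 epithelium was likewise the low class, on 7 cells. The per-cell sum had a median of 1312 CPM in them and 3018 CPM in 141 cells of the unnamed clusters, and 0 of the 7 lay above that of the unnamed clusters. There 9 of 10 genes were lower by the same limit and 0 higher, against 27.8% and 9.72% of all genes. Atf3, with 0 counts, is among the 9, but no E12.5 expression was read from it above, so its place there shows nothing. The exception was Ier2, at 261 CPM in epithelium and 447 CPM in the unnamed clusters. Muscle at E12.5 (7 cells) stood at 2272 CPM, with 2 genes lower (Fosb, and Atf3 with 0 counts) and 1 higher, against 29.3% and 10.3%. These counts are close to the shares of all genes, and the same limit holds for Atf3. The higher one was Btg2, at 261 CPM in muscle and 46.3 CPM in the unnamed clusters, and 385 of its 657 counts came from 1 cell.

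Within a class that spanned stages, epithelium had a median sum of 2153 CPM at E15.5, against 1312 CPM at E12.5 (1.64 times), and muscle 2043 CPM at E15.5, against 2272 CPM at E12.5 (0.899 times). Endothelium had 2596 CPM at E15.5 (10 cells) and 844 CPM at E10.5 (5 cells), a ratio of 3.07, and cluster 7 had 7256 CPM at E15.5 (9 cells) and 1946 CPM at E12.5 (11 cells), a ratio of 3.73. At E10.5 the limb bud mesenchyme (823 CPM, 114 cells) and the endothelium (844 CPM) had nearly the same median, but single genes differed. In the 5 endothelial cells Egr1 had 1 count, against 138 CPM in the mesenchyme, and Fos stood at 39.8 CPM, against 164 CPM. Going the other way, Junb stood at 62.1 CPM, against 23.4 CPM, and Btg2 at 43.6 CPM, against 7.95 CPM. Most of the other E12.5 and E15.5 cells fell in different clusters, so stage and cluster cannot be told apart for them.

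At E12.5 and E15.5 the cells with the highest sums came from several clusters and from every pool of their stage. Of the top 20 cells at E15.5, 10 were in cluster 2, 9 in cluster 5, 1 in cluster 7 and 0 in the named classes, and all 5 pools were represented, with at most 7 cells from one. Of the top 16 at E12.5, 9 were in cluster 3, 4 in cluster 4, 2 in cluster 7 and 1 in muscle, from all 4 pools. The top 20 E15.5 cells had a median of 136437 counts and the other E15.5 cells 201779.

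Mast cell genes led cluster 2 by fold (Cma1, Cpa3 and Tpsb2), and they were carried by a few cells. Only 4 of its 86 E15.5 cells, from 3 pools, held 1000 CPM or more of these 3 genes together (16338 to 87164 CPM), and the other 82 held at most 437 CPM, with 0 cells between 500 and 2000 CPM. The split was made after seeing the data. In the 4 cells Prrx1 stood at 51.3 CPM, against 569.2 CPM in the other 82. The sum of the 10 genes had a median of 3869 CPM in the 4 cells and 5778 CPM in the other 82. In the 4 cells Fos stood at 658 CPM, against 1845 CPM in the other 82, while Junb stood at 368 CPM, against 225 CPM. The high level of cluster 2 was therefore held by the cells without the mast cell genes.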

How the data were processed

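Limb cells of mouse embryos were isolated on a Fluidigm C1 chip and their cDNA was tagmented with Nextera XT, per the labels' protocols. The authors deposited counts as whole numbers per gene and cell, with no sign of scaling in the values. The submitters' processing notes list Bowtie2, featureCounts and mm10. Tool versions, annotation, strand and use of molecular identifiers: not given in the sources used here. Counts were therefore taken to be reads, and intervals cover counting error only. The 1120 other samples were not analysed here, and 0 columns of the table stayed unused.

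The table held 22738 entries for 22092 symbols. For the 298 symbols listed more than once (0.101% of counts), identical entries were kept once and differing entries added. The filter of at least 1000 detected genes removed 3 of 480 cells. No doublet caller was run and no cell was left out as a doublet. Counts were summed per stage or pool and divided by their total to give CPM. Log2 ratios have 5 CPM added, folds have none, and cell values were taken as log2(CPM + 10). Each stage was 1 sample, so no test was run. The genes named were the 10 themselves, up to 4 called genes with the largest ratio in each list and comparison at 20 CPM or more, and the 10 genes most like the per-cell sum, of which 1 is not reported here. List genes named without values, the sequences shown and the single cells described were picked with their values in view. The members and lists were chosen with earlier results of these data known.

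Clusters used 2000 variable genes, 15 components, 15 neighbours and Leiden resolution 1 in scanpy 1.11.5. A cluster was named by the marker list with most genes among its top 100 by fold, at least 3. It stayed unnamed where that list had no gene among its top 10, or where another list had more genes there. These conditions on the top 10 were added after seeing the data. Gene positions are from GENCODE vM21 on GRCm38, and promoters from RefSeq. Python 3.11.15, numpy 2.4.6, pandas 2.3.3, scipy 1.17.1 and matplotlib 3.10.9 were used. The alternatives tried were other added values, scaling, weights of cells, filters, thinning depths, clusterings and leaving out each pool, gene or highest cell.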

Additional observations from a re-analysis of the deposited data

How the results depend on the processing

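The counts of genes called higher were 6 for E12.5 over E10.5, 6 for E15.5 over E12.5 and 9 for E15.5 over E10.5. They ranged from 6 to 7, 5 to 6 and 8 to 9 over all alternatives. Of 510 values of single genes under alternatives, 502 kept their side of the call, 4 lost a call, 4 gained one and 0 reversed a call. The lost calls were Fos at E15.5 over E12.5 and Atf3 at E15.5 over both earlier stages when the epithelium, muscle and endothelium clusters were left out (log2 ratios 2.69 and 2.55, with pools overlapping). The gained ones were Junb and Jund at E12.5 over E10.5, Junb also without those clusters (log2 ratio 1.23) and Jund when thinned (1.01). Uncalled values of Atf3 at E12.5 over E10.5 and of Ier2 at E15.5 over E12.5 changed sign in 4 alternatives each, and these are among the 502. For the per-cell sum, the log2 ratio of medians at E12.5 over E10.5 was 1.78, and 1.22 without Egr1 or 2.28 without Ier2. At E15.5 over E12.5 it was 0.78, and 1.17 without Egr1. At E15.5 over E10.5 it was 2.55, and 2.30 without Fos or 3.16 without Ier2. The mean number of the genes found per cell was 4.63, 6.46 and 7.86 in order of age, against 3.85, 5.76 and 7.17 when thinned to 20000 counts. Thinned to 100000 counts it was 5.13 at E10.5 and 8.38 at E15.5. The median share held by the top 10% of cells at E10.5 was 57.1%, and 59.4% after thinning. No paired analysis was possible because each stage is 1 sample and the numbers in the labels only name cells. Low levels such as Nr4a1 at E10.5 (114 counts) limit what a fold against them can show.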
